A study of Mus musculus with 9 samples.

Results

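The genes described here encode the nuclear subunits of the oxidative phosphorylation (OXPHOS) complexes, measured in the mouse trigeminal ganglion (TG), the sensory ganglion that serves the face and the jaw joint. Members were chosen by symbol alone, by a rule that uses no measured value, though earlier results of these data were known. They are the protein-coding genes of the mRNA table whose symbol starts with Nduf followed by a, b, c, s or v and a digit, with Uqcr, with Cox and a digit from 4 to 8, or with Atp5, together with Sdha, Sdhb, Sdhc and Sdhd. The rule found 84 of 21764 protein-coding genes, with 384 of the 102122 transcripts in the table. Complex I had 35 members, complex II 4, complex III 8, complex IV 20 and complex V 17. Ndufa4 and its paralog Ndufa4l2 were placed in complex IV, where the Ndufa4 protein is known to sit.

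All mice were male C57BL/6 wild type animals of 8 weeks. They were injected in the temporomandibular joint (TMJ) with 10 µl of saline or of complete Freund's adjuvant (CFA, 5 mg/ml), an oily suspension of killed mycobacteria that inflames the joint. The 9 libraries formed the groups saline (replicates 1 to 3, labelled day 3), CFA3D (day 3, replicates 1 to 3) and CFA6D (day 6, replicates 4 to 6). Each library came from TG punches of one side, pooled over 3 mice, so n = 3 pools per group and the p-values measure the spread between pools. As there was no day 6 saline group, CFA and the days since injection cannot be told apart in the comparison of CFA6D with saline.

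Oxidative phosphorylation makes most of the ATP of neurons. Complex I takes electrons from NADH and complex II takes them from succinate, both pass them to ubiquinone, complex III hands them to cytochrome c, and complex IV gives them to oxygen. Complexes I, III and IV pump protons out of the mitochondrial matrix, and complex V, the ATP synthase, lets them flow back to make ATP. A few core subunits are made from mitochondrial DNA, and all others are made from nuclear genes and imported. In complex IV several subunits have paired isoform genes, one used widely and one used in heart, skeletal muscle, brown fat, testis or lung.

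The values are FPKM (fragments scaled to transcript length and to the mapped fragments of the library), summed over the transcripts of a gene, and they allow levels to be compared between genes per length. The depth of a library, estimated from the smallest steps in the table, was about 30100000 to 42600000 read pairs. The markers of sensory neurons (12 genes), which define the labelled tissue, summed to 2091 to 3205 FPKM. Several pools held RNA that is not typical of the ganglion. Skeletal muscle markers (12 genes) summed to 252 FPKM in saline replicate 2, 112 in CFA6D replicate 6 and 55.1 in saline replicate 1, against 2.36 to 13.99 in the other libraries. Pituitary hormones (7 genes) summed to 10685 FPKM in saline replicate 3, 1117 in CFA6D replicate 4 and 411 in CFA6D replicate 5. Their sums in the other libraries were 8.89 to 99.8 FPKM. Neutrophil granule genes of the marrow (6 genes) summed to 2600 FPKM in CFA6D replicate 6. In bulk RNA, fewer cells of a type and less RNA per cell cannot be told apart.

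Promoters of OXPHOS genes are known for sites of nuclear respiratory factor 1 (NRF1), of ETS family factors such as GABP (also called NRF2), and of YY1. RefSeq windows from 250 bases before to 50 bases after the gene start (GRCm38.p6) were matched for 68 of the 84 members. Both strands were searched for GCGCATGCGC (NRF1, a palindrome), CCGGAAG (ETS) and AAGATGGCG (YY1). The ETS letters end as the YY1 letters begin, so matches to both can overlap. A match in any window of a gene counted. The NRF1 letters were in 5 of the 68 members (7.35%) and in 1.07% of 27025 genes. ETS letters were in 16 members (23.5%) against 9.93% of genes, and YY1 letters in 7 (10.3%) against 1.64%. The letters TATAAA, the core of a TATA box, were in 7 members (10.3%) against 15.7%. With each gene counted at its window richest in CG dinucleotides, the median was 19 for members, against 8 for all genes. The NRF1 matches of 4 members, whose windows lie wholly before the RefSeq gene start, and the ETS matches of the 3 such members called in a comparison are printed to show where these letters stand. Each run is 30 bases on the gene strand, 5′ to 3′, and capitals mark the matched letters, which for Atp5l and Sdhd are the reverse complement of CCGGAAG.
Atp5g2, chr15:102671070-102671099, minus strand: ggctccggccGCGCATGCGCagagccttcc
Atp5k, chr5:108434430-108434459, minus strand: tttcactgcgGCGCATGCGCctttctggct
Cox6a1, chr5:115349101-115349130, minus strand: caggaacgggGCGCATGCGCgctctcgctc
Ndufa11, chr17:56717692-56717721, plus strand: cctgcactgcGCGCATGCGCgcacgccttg
Atp5l, chr9:44920936-44920965, minus strand: acttcaccgatCTTCCGGaccaacatgaat
Ndufb7, chr8:83566727-83566756, plus strand: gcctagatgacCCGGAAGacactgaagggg
Sdhd, chr9:50603877-50603906, minus strand: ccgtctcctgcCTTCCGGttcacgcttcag
These are letter matches, and binding was not measured. By the same count, the window of Cox8b, the muscle-type gene described further on, held 2 CG dinucleotides and that of Cox7a1 held 7.

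OXPHOS subunit mRNAs were abundant. The members summed to 6024 to 7459 FPKM, or 2.55% to 3.07% of all protein-coding FPKM of a library, and 75 members had a mean above 10 FPKM. The highest was Atp5b, the catalytic beta subunit of ATP synthase, at a mean of 337 FPKM over 9 libraries. Next came Cox8a at 273, the small ubiquitous complex IV subunit.

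Within each complex the levels were spread over a wide range. In complex I they ran from 17.7 FPKM for Ndufs4, an accessory subunit needed for late assembly, to 99.4 for Ndufa2, with a median of 50.6. In complex II, Sdhc, a membrane anchor, had 13.2 FPKM, whereas Sdha, the flavoprotein that oxidizes succinate, had 81.1. Complex III ranged from 31.9 for Uqcrfs1, the Rieske iron-sulfur protein, to 144 for Uqcr10. In complex V the lowest member was Atp5s, a coupling factor, at 5.93 FPKM. These are FPKM of genes whose highest transcript was shorter than 1 kb in 57 of 84 cases.

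The levels varied little between pools. Of the 75 members above 10 FPKM, 66 had a highest library within 1.5-fold of the lowest, and the median of that ratio was 1.34. What moved was largely shared by the members of a library. CFA3D replicate 3 had the highest value of all 9 libraries in 42 of the 75 members and the lowest in 0. CFA6D replicate 5 was the lowest in 25 members, and CFA3D replicate 2 and CFA6D replicate 4 in 14 each. The median deviation of the 75 members from their own mean, on the log2 scale, was 0.17 in CFA3D replicate 3, against -0.03 and -0.02 in the other CFA3D pools. It was 0.05, 0.09 and -0.06 in the saline pools and -0.05, -0.12 and -0.04 in the CFA6D pools. The CFA6D pools thus lay below 2 of the 3 saline pools, and saline replicate 3 lay among them.

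**Figure D1:**
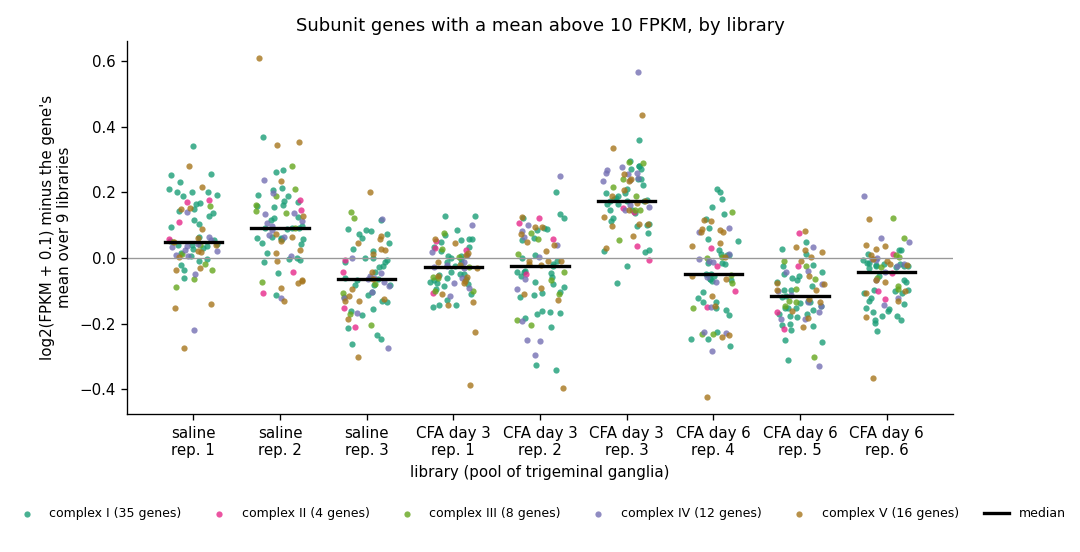
Each point is a subunit gene with a mean above 10 FPKM, placed by library (horizontal axis) and by its log2(FPKM + 0.1) minus its own mean over the 9 libraries (vertical axis), with black bars at the median of the 75 genes. CFA3D replicate 3 stands above all other libraries at a median of 0.17, and CFA6D replicate 5 is lowest at -0.12.

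For the tests, log2(FPKM + 0.1) of all 16069 protein-coding genes with a mean of at least 0.1 FPKM was fitted in limma, and a gene was called at an unadjusted p under 0.05. Of the members 82 were tested. Cox7b2 (at most 0.21 FPKM) and Cox8c (0.10 FPKM in CFA3D replicate 1, listed at 0 elsewhere) fell under the filter. After Benjamini-Hochberg adjustment in limma, 0% of all genes and 0 members passed in any of the 3 comparisons, so every call rests on the unadjusted p. The smallest limma adjusted p among the members was 0.997 for CFA3D against saline, 0.152 for CFA6D against saline and 0.616 for CFA6D against CFA3D.

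On day 3 few OXPHOS genes were called against saline, in both directions. Of the 82 members, 2 were called higher (2.44%, against 3.65% of all genes) and 3 lower (3.66%, against 0.803%). The higher ones were Cox4i1 and Cox4i2, and the lower ones Ndufa13, Atp5o and Cox8b. The median log2 fold change over members was 0.01, with 47 above 0 and 35 below, and that of all genes was 0.05. The member median was below 0 under each other scaling, at -0.06 with quantile normalization, which gave 2 higher and 8 lower calls, -0.02 when rescaled to nuclear genes and -0.03 when centred. By complex the medians were -0.01 (I), 0.04 (II), 0.05 (III), 0.01 (IV) and 0.05 (V). The groups did not overlap in 2 members that were higher and 6 that were lower, against 7.01% and 2.11% of all genes. Without CFA3D replicate 3, there were 1 higher and 6 lower calls and the median was -0.05. Without saline replicate 2, CFA3D replicate 1 or CFA3D replicate 2, the lower calls dropped to 0, and without saline replicate 3 there were 5. The higher calls became 4 without CFA3D replicate 1.

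Cox4i1, the ubiquitous form of subunit 4 that takes part in the regulation of complex IV by ATP, was called higher. Its gene (chromosome 8, 120668222 to 120674207, plus strand, GRCm38) had 161, 172 and 155 FPKM in the saline pools and 201, 201 and 278 in the CFA3D pools. The CFA6D pools had 186, 149 and 214 FPKM. Every CFA3D pool lay above every saline pool, and the CFA6D pools spanned both ranges. The log2 fold change on day 3 was 0.46 with an SE of 0.16 (limma adjusted p = 0.997). Without CFA3D replicate 3 it was 0.31 and no longer called.

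Most of the Cox4i1 signal came from one protein-coding transcript (ENSMUST00000034276, 745 bases), with 132, 124 and 128 FPKM in saline, 154, 153 and 224 in CFA3D, and 158, 118 and 189 in CFA6D. Taken in place of the gene sum, this transcript had nearly the same log2 fold change on day 3, 0.45, but was not called. A retained-intron transcript of the same gene (ENSMUST00000181026, 438 bases) had 1.52, 5.05 and 0.86 FPKM in saline, 7.53, 7.48 and 7.76 in CFA3D, and 0.75, 0.93 and 2.76 in CFA6D. It was called higher on day 3 (log2 fold change 1.94, limma adjusted p = 0.989) and lower on day 6 than on day 3 (-2.50, limma adjusted p = 0.880). The CFA3D pools were thus both high and close together for a transcript that made up a few percent of the gene.

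Cox4i2, the lung-type isoform of the same subunit, which is known to respond to oxygen, was at a far lower level. It had 0.53, 0.78 and 0.58 FPKM in saline, 0.96, 1.07 and 1.08 in CFA3D, and 0.91, 0.95 and 0.73 in CFA6D. The log2 fold change on day 3 was 0.65 with an SE of 0.20 (limma adjusted p = 0.997). On day 6 it was 0.41 and not called, though it was called without saline replicate 2 (0.55) or without CFA6D replicate 6 (0.51). The higher of its transcripts (ENSMUST00000010020) had 0.66, 0.67 and 0.03 FPKM in CFA3D, where the other had 0.30, 0.40 and 1.05, and taken alone it was not called on day 3.

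The muscle-type subunits of complex IV varied most between pools. Cox8b, the heart, muscle and brown fat counterpart of Cox8a, had 0.65, 49.9 and 1.28 FPKM in saline, 0.25, 0.27 and 0.34 in CFA3D, and 0.32, 0.44 and 2.49 in CFA6D. Cox7a1, the muscle and brown fat counterpart of Cox7a2, had 5.40, 19.8 and 5.12 FPKM in saline, 3.87, 3.78 and 4.83 in CFA3D, and 2.45, 3.46 and 5.62 in CFA6D. Cox6a2, the muscle counterpart of Cox6a1, had 1.06, 2.51 and 0.77 FPKM in saline, 0.47, 0.50 and 0.64 in CFA3D, and 0.49, 0.69 and 3.24 in CFA6D. Saline replicate 2 was the highest of all pools for Cox8b and Cox7a1, and CFA6D replicate 6 for Cox6a2.

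The same pools were high in markers of other tissues. All 12 skeletal muscle markers had values above 0 in every library and were highest in saline replicate 2, where Acta1, skeletal actin, had 60.5 FPKM against 0.45 to 17.5 elsewhere. Ucp1, the uncoupling protein that defines brown fat, had 18.3 FPKM in saline replicate 2 and at most 0.35 in any other library. The 6 brown fat and adipocyte markers summed to 70.3 FPKM there and to 5.61 to 9.85 elsewhere, and Adipoq, the adipocyte hormone adiponectin, was listed at 0 in 4 libraries. All 12 muscle markers lay below 0 in both comparisons with saline, and 2 of them were called lower on day 3. The part of muscle or fat RNA in the levels of these isoforms was not tested.

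The calls on these isoforms were lost without saline replicate 2. Cox8b was called lower on day 3 at a log2 fold change of -3.28 with an SE of 1.36, and without saline replicate 2 this became -1.40 and was not called. Cox7a1 was called lower on day 6 at -1.15 with an SE of 0.48, and without saline replicate 2 it was at -0.52 and was not called. Without CFA3D replicate 3 neither was called, at -3.38 and -1.15. Cox6a2 was not called on day 3 (-1.12) or day 6 (-0.25). Without CFA6D replicate 6 it was called lower on both days, at -1.12 and -1.01, and without saline replicate 2 its day 6 value was 0.21. All 3 genes lie on chromosome 7, Cox8b at 140898945 to 140900446, Cox7a1 at 30184144 to 30186078 and Cox6a2 at 128205435 to 128206387.

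**Figure D2:**
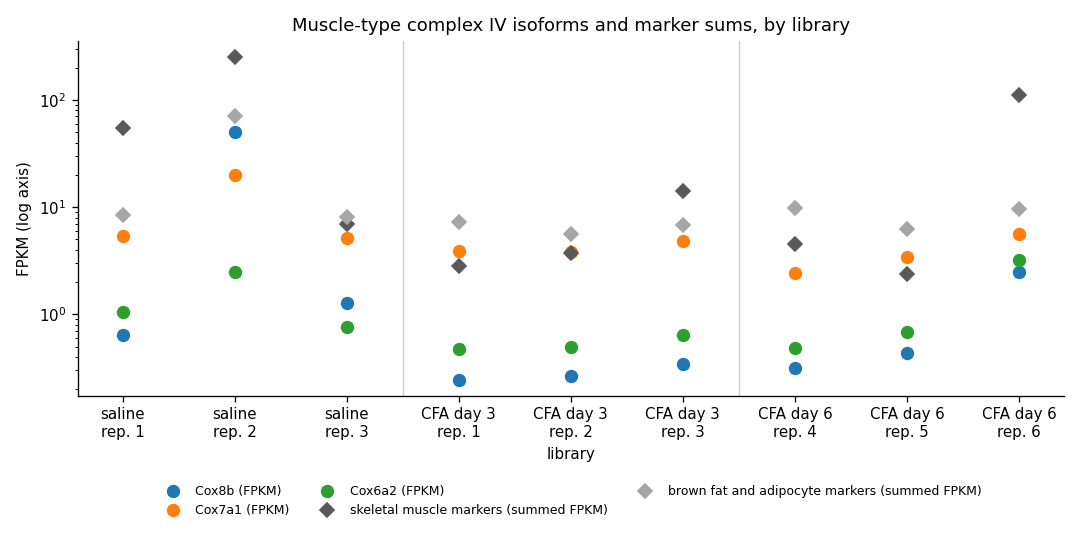
Circles give the FPKM of Cox8b, Cox7a1 and Cox6a2 and diamonds the summed FPKM of skeletal muscle (12 genes) and brown fat and adipocyte (6 genes) markers in each library, on a log axis. Saline replicate 2 holds the highest Cox8b (49.9) and Cox7a1 (19.8) together with the highest marker sums (252 and 70.3), and CFA6D replicate 6 has the highest Cox6a2 (3.24).

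The remaining isoform and regulator genes that were tested had 0 calls. Cox6b2, the testis form of Cox6b1, ran from 3.15 to 5.71 FPKM, and Ndufa4l2, known to rise in hypoxia, from 0.45 to 1.38. Cox7a2l, an assembly factor of respiratory supercomplexes, ran from 62.5 to 87.4 FPKM. The ubiquitous partners were far higher and moved little. Cox8a ran from 239 to 305 FPKM, Cox7a2 from 139 to 195 and Cox6a1 from 219 to 276 across the libraries, with groups that overlapped between saline and each CFA day.

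By day 6 most members lay below their saline level, by a small margin. Of 82 members, 10 were called lower (12.2%, against 2.84% of all genes) and 1 higher (1.22%, against 8.21%). The lower ones were Ndufv2, Ndufa7, Ndufa13, Ndufb2, Ndufb4, Ndufb7 and Ndufb11 of complex I, Cox7a1 of complex IV, and Atp5o and Atp5l of complex V. The higher one was Uqcrc1 of complex III. The median log2 fold change was -0.11, with 67 members below 0 and 15 above, and that of all genes was 0.03. The medians by complex were close together, at -0.11 (I), -0.09 (II), -0.11 (III), -0.10 (IV) and -0.09 (V). Groups did not overlap in 21 members that were lower (25.6%, against 5.5% of all genes) and in 1 that was higher (10.7% of all genes).

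These counts moved with single pools, while the median stayed below 0. Leaving out saline replicate 2 or CFA6D replicate 5 gave 6 lower calls, and leaving out saline replicate 3 gave 18. The median lay between -0.17 and -0.06 over all libraries left out. Quantile normalization gave 22 lower calls and a median of -0.17, and the median was -0.14 under both other scalings.

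Complex I, with 35 of the 82 tested members, held 7 of the 10 lower calls. This was 20% of its members, against 2.84% of all genes. The NADH-oxidizing module of complex I includes Ndufv1, the flavin-binding subunit, Ndufv2, which carries an iron-sulfur cluster, and Ndufs1, the largest core subunit. Ndufv2 (chromosome 17, 66078638 to 66101559) had 47.0, 41.9 and 42.7 FPKM in saline, 39.3, 42.4 and 46.4 in CFA3D, and 37.1, 36.1 and 34.8 in CFA6D. All CFA6D pools lay below all others, and the log2 fold change against saline was -0.28 with an SE of 0.082 (limma adjusted p = 0.239). Ndufs1 had 37.8 to 42.5 FPKM in all libraries and Ndufv1 39.0 to 52.4, with log2 fold changes of -0.04 and -0.15 on day 6 that were not called.

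The other core subunits form the arm that passes electrons to ubiquinone, and 0 of them were called. Their log2 fold changes on day 6 included -0.03 for Ndufs3, -0.11 for Ndufs7 and -0.11 for Ndufs8. On day 3 the 7 core subunits ranged from -0.12 (Ndufv1) to 0.05 (Ndufs1). Ndufs8 was highest in saline replicate 2, at 67.5 FPKM, against 44.8 to 60.1 in the other libraries.

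The accessory (supernumerary) subunits surround this core, and 6 of 28 were called lower on day 6 (21.4%, against 2.84% of all genes). Ndufa13, also known as GRIM-19 and needed for assembly of the membrane arm, had the smallest p of the members. The Ndufa13 gene lies on chromosome 8 from 69894180 to 69902558. It had 56.9, 60.2 and 52.5 FPKM in saline, 49.3, 47.5 and 50.6 in CFA3D, and 44.7, 43.3 and 46.6 in CFA6D. The 3 groups did not overlap with each other, in the order saline, CFA3D, CFA6D. The log2 fold change was -0.20 on day 3 and -0.33 on day 6, each with an SE of 0.074, the latter with a limma adjusted p of 0.152. Both comparisons share the saline pools. The day 3 call was lost in 6 of 22 alternatives, among them the replicate block and the fits without saline replicate 2, CFA3D replicate 1 or CFA3D replicate 2, and the day 6 call in 0 of 21.

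Ndufb2, a small subunit of the membrane arm, was called lower by the widest margin among the ubiquitous members. It had 34.3, 33.3 and 29.8 FPKM in saline, 27.9, 32.5 and 38.3 in CFA3D, and 25.1, 23.97 and 26.1 in CFA6D. The CFA6D pools lay below all other libraries, while the CFA3D pools spanned the saline range. The log2 fold change on day 6 was -0.37 with an SE of 0.11 (limma adjusted p = 0.261). The mean was 32.5 ± 2.3 FPKM (SD, n = 3) in saline and 25.04 ± 1.1 in CFA6D.

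Ndufa7, an accessory subunit, had 91.5, 90.2 and 84.7 FPKM in saline and 66.4, 73.1 and 74.8 in CFA6D, without overlap (log2 fold change -0.31, limma adjusted p = 0.266). Ndufb11 had 58.5, 56.5 and 53.0 FPKM in saline and 44.6, 50.8 and 47.3 in CFA6D, again without overlap (-0.24, limma adjusted p = 0.295). Both are members whose CFA3D pools reached into the saline range. Ndufb7 had 71.2, 70.6 and 60.7 FPKM in saline and 61.3, 55.0 and 57.5 in CFA6D, where the groups overlapped (-0.22, limma adjusted p = 0.415). It was no longer called in 8 of 21 alternatives.

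Ndufb4 was called lower on day 6 at -0.24, with 37.9, 33.2 and 28.5 FPKM in saline and 27.2, 28.9 and 27.7 in CFA6D. The processed pseudogene Ndufb4c had a like level, from 28.5 to 40.0 FPKM, so how reads were shared between the pair is uncertain. The call was lost in 12 of 21 alternatives.

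**Figure D3:**
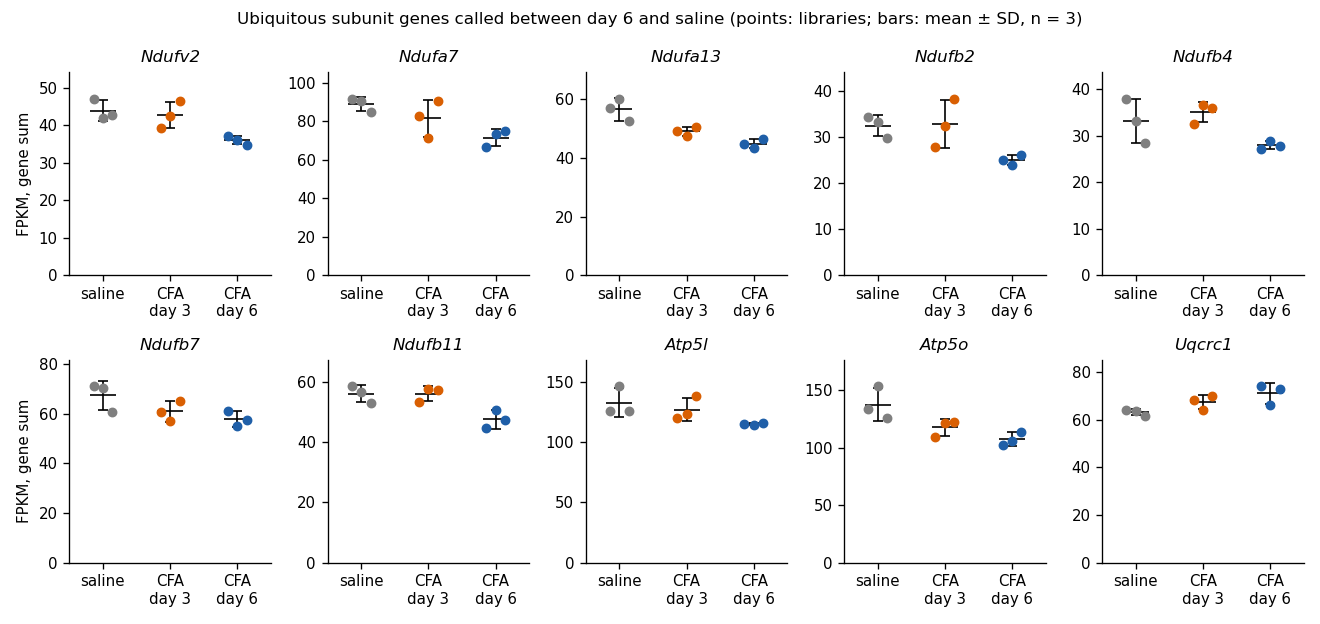
Gene sums in FPKM of the 9 ubiquitous subunit genes called lower and the 1 called higher between CFA6D and saline, with a point for each library and bars for the mean ± SD of 3 pools. In Ndufv2, Ndufa13, Ndufb2, Ndufb11 and Atp5l the CFA6D pools lie below both other groups. In Uqcrc1 (61.8 to 64.4 FPKM in saline, 66.1 to 74.2 in CFA6D) the CFA6D pools lie above saline.

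In complex II, which also works in the citric acid cycle, 0 of 4 members were called against saline on either day. Sdha had 78.6 to 87.4 FPKM in saline and 78.4 to 85.4 in CFA6D, with a log2 fold change of 0.00 on day 6 (SE 0.076). Sdhb, the iron-sulfur subunit, was at -0.20 on day 6, with 67.9, 68.3 and 54.4 FPKM in saline and 54.4, 53.8 and 56.3 in CFA6D. Sdhc was at 0.02 and Sdhd at -0.18.

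In complex III 1 of 8 members was called on day 6, Uqcrc1, a core subunit of the matrix side, and it was higher. It had 64.4, 63.9 and 61.8 FPKM in saline, 68.5, 64.2 and 69.9 in CFA3D, and 74.2, 66.1 and 73.1 in CFA6D. The CFA6D pools lay above the saline pools, with a log2 fold change of 0.17 and an SE of 0.073 (limma adjusted p = 0.451). The call was lost in 18 of 21 alternatives. Its partner Uqcrc2 was at -0.19 and Uqcrfs1 at -0.04.

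Among the 11 ubiquitous complex IV members 0 were called on day 6, and their median log2 fold change was -0.13. Cox4i1 was at 0.16 and Cox5a, a subunit of the matrix side, at 0.03. Cox6c was lowest at -0.17. The catalytic core of complex IV is made from mitochondrial genes, which are given further on.

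In complex V, Atp5o, the stalk subunit named for oligomycin sensitivity, was called lower on both days. The gene lies on chromosome 16 from 91925214 to 91931687. It had 134, 154 and 126 FPKM in saline, 110, 122 and 123 in CFA3D, and 102, 106 and 114 in CFA6D. No CFA pool reached the lowest saline pool. The log2 fold change was -0.22 on day 3 and -0.35 on day 6, each with an SE of 0.097. The limma adjusted p on day 6 was 0.216. The day 3 call was lost in 13 of 22 alternatives, among them the replicate block and the fits without saline replicate 1, saline replicate 2 or any CFA3D or CFA6D library.

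The transcripts of Atp5o did not all follow the sum. Its main transcript had 87.6, 138 and 113 FPKM in saline and 96.9, 97.9 and 101 in CFA6D, which overlap. A shorter protein-coding transcript (ENSMUST00000139277, 710 bases) had 31.3, 0.83 and 0.59 FPKM in saline, 6.37, 1.39 and 7.97 in CFA3D and 0.00, 0.10 and 0.52 in CFA6D. With the main transcript in place of the sum, the day 6 value was -0.17 and no longer called.

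Atp5l, a membrane subunit of the ATP synthase dimer interface, had 126, 147 and 126 FPKM in saline, 120, 124 and 138 in CFA3D, and 115, 114 and 116 in CFA6D. Its log2 fold change on day 6 was -0.20, and 12 of 21 alternatives lost the call. The catalytic subunits Atp5a1 and Atp5b were not called, at 0.09 and 0.02 on day 6. Atp5b had 351, 334 and 307 FPKM in saline, 333, 335 and 367 in CFA3D, and 355, 314 and 336 in CFA6D.

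The c ring, which turns as protons pass, is made from 3 genes that encode the same mature protein. Their levels differed per length. Atp5g3 ran from 121 to 149 FPKM, Atp5g1 from 61.4 to 89.7 and Atp5g2 from 35.5 to 44.9, so each kept its rank in every library. On day 6 they were at 0.09, -0.14 and -0.11, and 0 of them were called in any comparison. Atp5k, a dimer interface subunit whose promoter window is printed above, was at -0.34 on day 3 and -0.06 on day 6, with 0 calls.

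**Figure D4:**
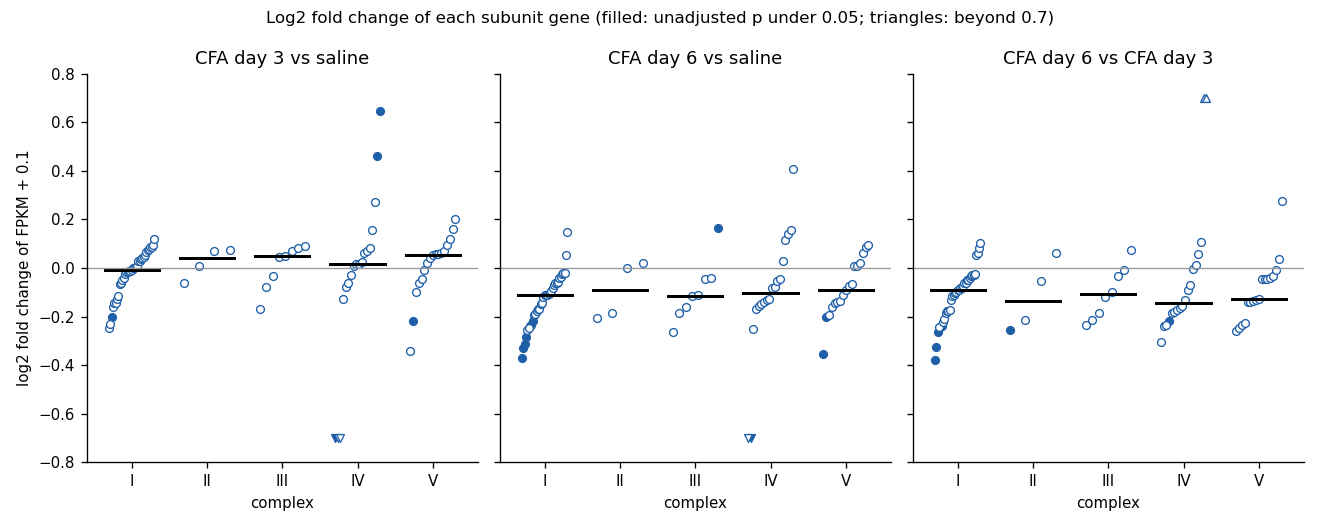
Log2 fold change of each of the 82 tested subunit genes, sorted within its complex, for CFA3D against saline, CFA6D against saline and CFA6D against CFA3D. Filled symbols mark an unadjusted limma p under 0.05, black bars the complex medians and triangles values beyond 0.7 in size, which are the muscle-type isoforms. The medians of all 5 complexes lie between -0.11 and -0.09 for CFA6D against saline.

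Between the CFA days most members lay lower on day 6 than on day 3. Of 82 members, 7 were called lower (8.54%, against 4.33% of all genes) and 0 higher (3.05% of all genes). They were Ndufb2 (log2 difference -0.38), Ndufb4 (-0.32), Ndufa9 (-0.26), Ndufv2 (-0.24) and Ndufb11 (-0.24) of complex I, Sdhd (-0.26) of complex II and Cox7c (-0.22) of complex IV. The median difference was -0.10, with 69 members below 0, against -0.02 for all genes. Groups did not overlap in 20 members that were lower (24.4%, against 10.1% of all genes) and 0 that were higher (6.62% of all genes).

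Ndufa9, an accessory subunit at the junction of the 2 arms, had 54.0, 54.0 and 61.5 FPKM in CFA3D and 50.3, 45.0 and 45.6 in CFA6D. Sdhd had 46.4, 48.7 and 49.7 FPKM in CFA3D and 41.7, 38.5 and 41.0 in CFA6D. In both genes every CFA6D pool lay below every CFA3D pool. Cox7c had 180, 188 and 220 FPKM in CFA3D and 175, 163 and 165 in CFA6D, again without overlap. Without CFA3D replicate 3, whose members were high, there were 4 lower and 1 higher calls. The member median was then -0.05, with 49 of 82 members below 0, against a median of -0.04 for all genes. The lower calls became 14 without CFA3D replicate 1 and 11 without saline replicate 3. When saline replicate 2 and CFA3D replicate 3 were both left out, the count was 1.

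Single transcripts were tested next, since a gene sum can hide an exchange between transcripts. Members had up to 14 transcripts, with a median of 4, and 12 had 1. Protein-coding transcripts carried 87.9% to 89.9% of the member FPKM and retained-intron transcripts 6.72% to 8.04%. Calls on transcripts required, beside the unadjusted p, a log2 fold change of 1 or more in size. Of 339 member transcripts tested, 5 were called on day 3 (1.47%, against 2.18% of all transcripts), 10 on day 6 (2.95%, against 2.56%) and 9 between the days (2.65%, against 2.23%). By count, the members' transcripts were called about as often as transcripts in general.

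In Ndufs1 the levels of transcripts shifted while the gene sum did not. Its main transcript (ENSMUST00000168099) had 27.5, 26.6 and 22.9 FPKM in saline, 16.1, 16.8 and 28.02 in CFA3D, and 17.7, 13.2 and 15.9 in CFA6D. Another protein-coding transcript (ENSMUST00000027111) had 2.33, 1.795 and 2.17 FPKM in saline, 9.60, 6.56 and 2.12 in CFA3D, and 3.84, 9.79 and 6.90 in CFA6D. It was called higher on day 3 (1.26) and on day 6 (1.57). The gene sum stayed between 37.8 and 42.5 FPKM, and CFA3D replicate 3 had the saline pattern.

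Ndufa10, an accessory subunit of complex I chosen here after its values were seen, had a transcript marked for nonsense-mediated decay (ENSMUST00000189503) at 27.1 FPKM in saline replicate 1 and listed at 0 in the other saline pools. It had 17.3, 8.85 and 26.7 FPKM in CFA3D and 22.4, 22.9 and 12.6 in CFA6D, and it was called higher on both days (4.63 and 4.85), though saline replicate 1 was the highest of all pools. The main transcript (ENSMUST00000027478) had 19.1, 39.1 and 33.01 FPKM in saline, 25.4, 31.2 and 20.99 in CFA3D, and 17.3, 17.0 and 22.9 in CFA6D. The gene sum, from 39.4 to 54.4 FPKM, was not called.

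Atp5g1 had a long protein-coding transcript (ENSMUST00000090541, 4715 bases) at 1.44, 1.37 and 2.02 FPKM in saline, 4.24, 4.53 and 2.55 in CFA3D, and 1.23, 1.20 and 1.44 in CFA6D. It was called higher on day 3 against saline (1.16, limma adjusted p = 0.737) and lower on day 6 than on day 3 (-1.44, limma adjusted p = 0.474). A sister transcript of nearly the same length (ENSMUST00000178611, 4660 bases) was at 2.35, 2.60 and 5.58 FPKM in CFA3D and at 5.96, 4.76 and 5.11 in CFA6D. How reads are shared among transcripts that overlap this far is an estimate, so these exchanges are uncertain. A retained-intron transcript of Cox7a2l (ENSMUST00000235085) was lower on day 6, at 4.80, 4.603 and 3.57 FPKM in saline against 2.03, 2.07 and 1.76 (log2 fold change -1.10).

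**Figure D5:**
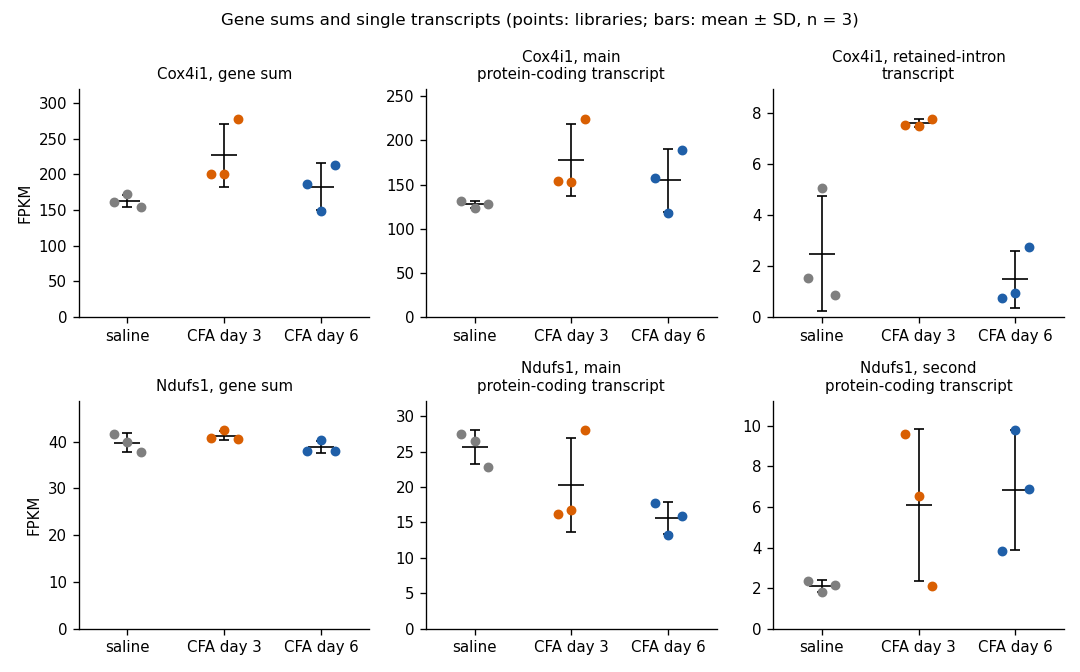
FPKM of the Cox4i1 and Ndufs1 gene sums and of single transcripts, with a point for each library and bars for the mean ± SD of 3 pools. The Cox4i1 retained-intron transcript is at 7.48 to 7.76 FPKM in CFA3D and at 5.05 or less in the other groups. In CFA6D the main Ndufs1 transcript is lower and the second higher than in saline. The Ndufs1 gene sum stays within 37.8 to 42.5 FPKM in all libraries.

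The rest of the pathway was read from lists. The 13 mitochondrially encoded subunits, which belong to complexes I, III, IV and V, had 0 calls in each comparison. Their medians were 0.02 on day 3 and -0.05 on day 6. Their sum varied more between pools than that of the nuclear members, from 8074 FPKM in saline replicate 1 to 12702 in CFA3D replicate 3. The genes outside the symbol pattern that were tested, the subunits Ndufab1 and Cyc1 and cytochrome c (Cycs), had 0 calls.

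Assembly factors build the complexes and do not stay in them. Of 47, 0 were called on day 3. Against saline 3 were called lower on day 6 (6.38%, against 2.84% of all genes). They were Ndufaf7 at -0.34, Coa6 at -0.34 and Ndufaf8 at -0.26. Between the CFA days 8 were called lower on day 6 (17.0%, against 4.33% of all genes). Of the citric acid cycle genes, Suclg1 (-0.27) and Fh1 (-0.20) were among those called lower on day 6, and Ogdh (0.28) was called higher. Of 16 glycolysis genes, 0 were called against saline on either day. Among 12 regulators of OXPHOS transcription, 1 was called higher on day 6 (8.33%, against 8.21% of all genes), Yy1 at 0.21. The others were not called against saline.

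Other gene groups also lay below their saline level on day 6. Of 72 cytosolic ribosomal protein genes, 8 were called lower (11.1%, against 2.84% of all genes) and 65 lay below 0. Their median was -0.14. Of 78 mitochondrial ribosomal protein genes, 7 were called lower (8.97%) and 63 lay below 0, with a median of -0.09. Of 1648 other genes whose highest transcript was shorter than 1 kb, 109 were called lower (6.61%) and 57 higher (3.46%). The shares of all genes were 2.84% and 8.21%, and the median of the 1648 was -0.05. Of the 10 members called lower on day 6, 8 had a highest transcript shorter than 1 kb. Sensory neuron markers went the other way, with 4 of 12 called higher (33.3%, against 8.21% of all genes). Of 6 connective tissue markers, Dcn, Lum and Col3a1 were called lower (50%, against 2.84% of all genes). Pdgfra (-0.12), Mgp (-0.08) and Col1a2 (0.27) were not called. All 6 satellite glia markers lay below 0, with a median of -0.20 and 0 calls. The part of transcript length or of the mix of cells in the member values was not tested.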

How the data were processed

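RNA of 9 TG pools was analysed from the table of mRNA transcripts, in which the authors deposited FPKM per transcript and library. The methods describe ribosomal RNA depletion, Trimmomatic and mapping to GRCm38, whereas the submitters' processing notes list Bowtie 0.12.2 and mm8. No per-sample column was left out (0). Transcripts were joined by identifier to GENCODE release 21 for mouse, which held 101539 of 102122, and FPKM was summed by gene name.

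Log2(FPKM + 0.1) was compared in limma 3.58.1 (R 4.3.3) with the 3 groups as means and a trended empirical Bayes fit on all 9 libraries. The unadjusted p cutoff of 0.05 follows the methods. Read depth was estimated from the smallest step of FPKM times length. The fit was tested on simulated data.

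The members, the lists and the rule for named genes were chosen with earlier results of these data known. Named are the core subunits, the isoforms, up to 3 called members per complex and comparison with the smallest p, the highest and lowest members of each complex, and called transcripts whose groups did not overlap. Other members are named where a count or range needed them. Some genes of these lists are not reported here. Same-numbered saline and CFA3D pools deviated with correlations of 0.09, -0.08 and 0.03, which gave no sign of pairing by number. Correlations this few cannot show that the pools were unpaired. Alternatives were 2 pseudocounts, 2 filters, 3 scalings, array weights, fewer groups, the highest transcript, each library left out, and a replicate block. Leaving out 2 pairs of libraries was added after seeing the data. Protein sequences were not used here. Python 3.11.15 was used for the other steps.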

Additional observations from a re-analysis of the deposited data

Results flagged for a closer look

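In the limma contrast of CFA6D with CFA3D, 7 members were called lower at an unadjusted p under 0.05 (8.54%, against 4.33% of all genes). There was no day 6 saline group, so a change in the effect of CFA and the days since injection cannot be told apart. The differences in log2 fold change, day 6 minus day 3, were -0.38 for Ndufb2, -0.26 for Ndufa9, -0.32 for Ndufb4, -0.24 for Ndufb11, -0.24 for Ndufv2, -0.26 for Sdhd and -0.22 for Cox7c. Every CFA6D pool was below every CFA3D pool in all 7, and the smallest limma adjusted p among them was 0.616, so 0 passed the correction. CFA3D replicate 3 had the highest level of the CFA pools in Ndufb2, Ndufa9, Ndufv2, Sdhd and Cox7c. Without it the count of members called lower was 4, and the member median was -0.05, against -0.04 for all genes.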

How the results depend on the processing

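Leaving out libraries, including both added pairs, gave 1 to 4 higher and 0 to 6 lower calls for CFA3D against saline, 0 to 1 higher and 6 to 18 lower for CFA6D against saline, and 0 to 1 higher and 1 to 14 lower for CFA6D against CFA3D. The member medians then ranged from -0.05 to 0.05, from -0.17 to -0.06 and from -0.14 to -0.05. For CFA3D against saline, a mean of at least 1 FPKM and the highest transcript each left 1 higher call, the highest transcript left 1 lower call, and quantile normalization and array weights each gave 8 lower calls. For CFA6D against saline, quantile normalization gave 22 and array weights 17 lower calls. Its higher call became 0 with a pseudocount of 0.01, a mean of at least 1 FPKM, quantile normalization, rescaling to nuclear genes, centring, only the groups compared, the highest transcript or array weights, and 2 without a filter. For CFA6D against CFA3D, only the groups compared gave 11 lower calls, and array weights 11 lower and 1 higher. The cause of these shifts was not tested. With the replicate block, CFA3D against saline had 2 higher and 4 lower calls and a median of 0.01. Ndufa13 and Atp5o lost their lower calls in it, Cox8b, Cox4i1 and Cox4i2 were still called, and Cox6a2 and Cox7a1 were called lower. The correlations between same-numbered pools gave no sign of pairing but cannot show that the pools were unpaired. No member called in a comparison changed direction in any alternative. Ndufa13, Ndufa7, Ndufb2 and Ndufv2 were called lower on day 6 in all 21.

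With 3 pools per group, the spread between pools limits which small differences can be called. The FPKM hold no counts, so errors of counting cannot be set apart from errors between pools. The saline pools differ from each other in RNA of muscle, brown fat and pituitary, and the CFA6D pools in RNA of muscle, pituitary and marrow.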
